A study of Mus musculus with 15 samples.

Results

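The genes described here drive cell division: the cyclins and kinases that start mitosis, the spindle checkpoint, the proteins of the centromere and kinetochore, the motors and scaffolds of the spindle, and the kinesin family as a whole. They were chosen by gene symbol from the annotation of the array: symbols of the kinesin (Kif), centromere protein (Cenp), Aurora kinase (Aurk), polo-like kinase (Plk) and Bub1 families, the A- and B-type cyclins, and Mki67, Cdk1, Cdc20, Top2a, Tpx2, Nuf2, Ttk, Mad2l1, Espl1, Prc1, Anln and Ect2. This gave 79 of the 22008 genes with a symbol on the array, 1 of them (Cdk1) listed under its older symbol Cdc2a. The transcription factor Foxm1 was not counted among them. By role, 52 of the 79 were listed as mitotic genes and 27 were other kinesins, most of which carry cargo or build cilia.

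RNA was measured in 15 whole primary tumours, 3 of each of 5 mouse mammary tumour lines, with 1 Affymetrix Mouse Gene 1.0 ST array for each tumour. Each tumour had been grown in the inguinal mammary fat pad of a different female mouse, for which the labels give an age of 6 to 8 weeks, and no group received a drug or carried an engineered deletion. EO771.LMB (metastatic) and EO771 (non-metastatic) tumours grew in C57Bl/6 mice, whereas EMT6.5 (metastatic), 4T1.2 (metastatic) and 67NR (non-metastatic) tumours grew in Balb/c mice. The EO771 line came from a spontaneous C57Bl/6 mammary tumour and EO771.LMB from a lung nodule of EO771 cells that carried a retroviral mCherry marker. The labels give EO771 as non-metastatic, whereas the study describes the parental tumours as poorly metastatic. 67NR and 4T1 are subpopulations of a single mammary tumour, whereas 4T1.2 and EMT6.5 are each a single-cell clone, so that each type stands for 1 line grown in 3 mice. The mean of EO771.LMB and EO771 is called the EO771 pair below, and the mean of 4T1.2 and 67NR the 4T1 pair. Host strain and tumour line cannot be told apart between these pairs.

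A dividing cell builds up cyclin B and Cdk1, separates its centrosomes, attaches each chromosome through its kinetochore to spindle microtubules and holds back anaphase until every kinetochore is attached. Many of the genes for this machinery are transcribed together late in the cell cycle and are silenced in resting cells. The letters TTTGAA or TTCGAA (the cell cycle homology region) and CCAAT (the box bound by the factor NF-Y) are known from promoters of such genes.

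The promoters of the members share these letters more often than promoters at large. RefSeq (build GRCm38.p6) gave a promoter, taken as the 250 bases before and 50 after the start, for 69 of the 79 members. TTTGAA, on either strand, occurred in 25 of 48 mitotic members (52.1%), in 3 of 21 other kinesins (14.3%) and in 20.2% of 27025 genes. TTCGAA, which reads the same on both strands, occurred in 4 of the 48 mitotic members (8.33%), against 1.8% of all genes. CCAAT, on either strand, occurred in 32 of 48 mitotic members (66.7%), in 8 of 21 other kinesins (38.1%) and in 41.1% of all genes. Both kinds stood in the same 300 bases in 47.9% of mitotic members and in 8.61% of all genes. The 4 promoters printed here belong to members that follow different patterns across the tumours: Cenpn and Ccnb2 were higher in the EO771 pair relative to the 4T1 pair, Mki67 was lower there, and Kif11 was separated by line within the 4T1 pair. Capitals mark TTTGAA and CCAAT, or TTCAAA and ATTGG where they lie on the other strand. Each is printed 5′ to 3′ along the gene.
Cenpn, chr8:116921490-116921789, plus strand: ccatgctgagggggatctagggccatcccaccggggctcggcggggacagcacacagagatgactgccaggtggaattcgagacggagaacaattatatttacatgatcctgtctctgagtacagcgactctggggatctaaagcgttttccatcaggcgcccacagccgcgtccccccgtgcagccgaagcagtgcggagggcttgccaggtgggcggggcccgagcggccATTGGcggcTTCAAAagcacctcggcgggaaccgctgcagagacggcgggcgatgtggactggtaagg
Ccnb2, chr9:70421505-70421804, minus strand: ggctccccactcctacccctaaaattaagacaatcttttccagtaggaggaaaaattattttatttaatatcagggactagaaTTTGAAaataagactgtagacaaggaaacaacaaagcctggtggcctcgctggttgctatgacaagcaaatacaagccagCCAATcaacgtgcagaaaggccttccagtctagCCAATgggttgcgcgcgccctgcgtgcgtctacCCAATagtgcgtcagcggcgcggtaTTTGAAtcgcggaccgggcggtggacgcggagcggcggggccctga
Mki67, chr7:135716330-135716629, minus strand: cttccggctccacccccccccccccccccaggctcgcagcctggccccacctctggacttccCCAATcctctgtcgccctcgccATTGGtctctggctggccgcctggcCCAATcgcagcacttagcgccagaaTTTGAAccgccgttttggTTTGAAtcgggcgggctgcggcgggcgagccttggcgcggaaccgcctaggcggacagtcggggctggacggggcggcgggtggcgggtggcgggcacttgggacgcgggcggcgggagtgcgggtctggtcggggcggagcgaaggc
Kif11, chr19:37376132-37376431, plus strand: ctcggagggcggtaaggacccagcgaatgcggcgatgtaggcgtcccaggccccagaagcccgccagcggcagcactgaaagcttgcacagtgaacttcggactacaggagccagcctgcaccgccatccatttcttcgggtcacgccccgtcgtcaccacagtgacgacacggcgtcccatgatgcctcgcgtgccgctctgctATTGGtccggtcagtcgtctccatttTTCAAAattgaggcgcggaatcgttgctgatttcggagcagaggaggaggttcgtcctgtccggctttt
All of these windows hold both kinds of letters, as 47.9% of mitotic members do. The 4 were picked by hand, so they cannot show whether the letters go with the patterns. In Cenpn the first letter of TTCAAA, as printed, lies 9 bases before the start, and in Kif11 it lies 19 bases before it. Mki67 has TTTGAA at 116 and 98 bases before the start, whereas Ccnb2 has it 167 bases before and 5 bases after the start. Among mitotic members, 55.3% of the 38 that were higher in the EO771 pair and had a promoter held TTTGAA, and 40% of the 10 that were not higher held it. A match describes these letters in this window only.

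All levels below are log2 signals as deposited. A gene with several probe clusters (10 of the members) is given by its brightest one, and differences are on the log2 scale with their standard error (SE). Differences were tested with limma over all 35556 clusters, and a gene is called higher or lower where its Benjamini-Hochberg adjusted p is under 0.05. Array medians were 6.32 to 6.44 and tumours of the same type correlated at 0.983 to 0.989 over all clusters. Markers of other cells differed between the types, and in bulk tumour RNA fewer cells of a type and less RNA per cell cannot be told apart. For the marker counts, 23.6% of all genes were higher and 19.5% lower in the EO771 pair relative to the 4T1 pair. The shares were 11.9% and 9.56% in EMT6.5 relative to the 4T1 pair, and 17.7% and 15.1% in the EO771 pair relative to EMT6.5. The 11 macrophage markers were all lower in the EO771 tumours as a pair (median difference from the 4T1 pair -1.53). Their median deviation from the 15-tumour mean was -1.10 to -0.62 in EO771.LMB tumours and -0.84 to -0.58 in EO771 tumours, against 0.25 to 0.59 in 4T1.2 and 0.95 to 1.16 in 67NR tumours. In EMT6.5 the deviation was -0.15 to 0.15, and 9 of the 11 were lower than in the 4T1 pair. Fibroblast markers differed by a median of -0.95 between the EO771 pair and the 4T1 pair, with 8 of 10 called lower. In EMT6.5, 4 of the fibroblast markers were higher and 1 lower than in the 4T1 pair (median 0.36), and 5 of 7 neutrophil markers were lower (median -0.74). Set against EMT6.5, the EO771 pair had 9 fibroblast markers lower and 1 higher (median -1.28), 8 macrophage markers lower (median -0.79) and 3 neutrophil markers higher (median 0.45). Skeletal muscle markers stood at 2.24 and 2.93 above their mean in EMT6.5 tumours 1 and 3 but at -0.54 in EMT6.5 tumour 2. Of these 7 markers, 5 were higher in EMT6.5 than in the 4T1 pair (median 2.07) and, in the EO771 pair set against EMT6.5, 5 were lower (median -1.49). The part of these cells in the results below was not tested. Among 10 mammary epithelial markers, Krt8 averaged 9.83 to 10.65 and Krt18 6.59 to 10.37 over the 5 types, whereas Epcam averaged 5.55 to 6.13, below every array median. Relative to the 4T1 pair, 4 of the 10 were lower and 1 higher in the EO771 pair (median -0.30) and 3 were higher in EMT6.5 (median 0.31), and 6 were lower in the EO771 pair when set against EMT6.5 (median -0.46). Their part in the results was likewise not tested.

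The mitotic genes ran in the order EO771.LMB, EO771, EMT6.5, 4T1.2, 67NR. The median deviation of the 52 mitotic members from their 15-tumour means was 0.33, 0.44 and 0.44 in the EO771.LMB tumours, 0.20, 0.37 and 0.26 in the EO771 tumours and 0.08, 0.03 and 0.16 in the EMT6.5 tumours. It was -0.13, -0.25 and -0.44 in the 4T1.2 tumours and -0.55, -0.40 and -0.45 in the 67NR tumours. Every EO771.LMB and EO771 tumour was thus above every EMT6.5 tumour, which in turn was above every tumour of the 4T1 pair, whereas EO771.LMB overlapped with EO771 and 4T1.2 with 67NR. EO771.LMB had the highest mean of the 5 types for 31 of the 52 members and 67NR the lowest for 29, with 4T1.2 lowest for another 18. Over all 22008 genes, EO771.LMB was highest for 4620, 67NR lowest for 5191 and 4T1.2 lowest for 4089.

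**Figure D1:**
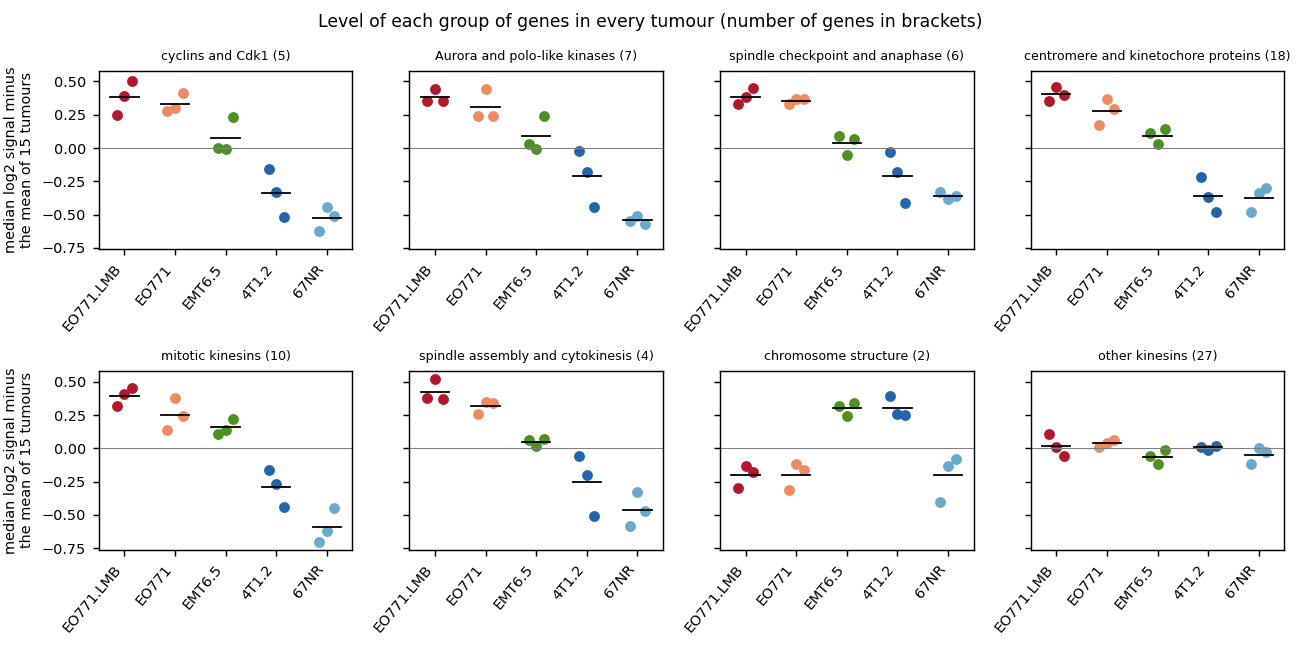
Median log2 signal of the members of each role, minus each gene's mean of the 15 tumours (y axis), in every tumour (points) of the 5 types (x axis). Over the 52 mitotic members the medians lay between 0.20 and 0.44 in EO771.LMB and EO771 tumours and between -0.55 and -0.13 in 4T1.2 and 67NR tumours, whereas those of the 27 other kinesins lay between -0.12 and 0.11 in all tumours.

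Of the 79 members, 51 were higher and 9 lower in the EO771 pair relative to the 4T1 pair (median difference 0.49), where 23.6% of all genes were higher and 19.5% lower (median -0.02). Among the 52 mitotic members 42 were higher and 3 lower (median 0.71), and the 6 tumours of each pair did not overlap for 34 of them, which was the case for 22.6% of all genes. The 27 other kinesins gave 9 higher and 6 lower, with a median of 0.02. EMT6.5 tumours stood between the pairs: 34 of the 52 mitotic members were higher than in the 4T1 pair and 0 lower (median 0.45), where 11.9% of all genes were higher and 9.56% lower. At an unadjusted p under 0.05, 43 were higher and 1 was lower in that comparison, where 17.3% of all genes were higher and 15% lower. When the EO771 pair was set against EMT6.5, 19 of the 52 were higher and 7 lower (median 0.24), where 17.7% of all genes were higher and 15.1% lower. The first 2 of these comparisons share the tumours of the 4T1 pair, and the last shares tumours with both. With EMT6.5 tumour 2 alone, the tumour without raised muscle markers, the median difference of all 79 members from the 4T1 pair was 0.24 in place of 0.30.

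**Figure D2:**
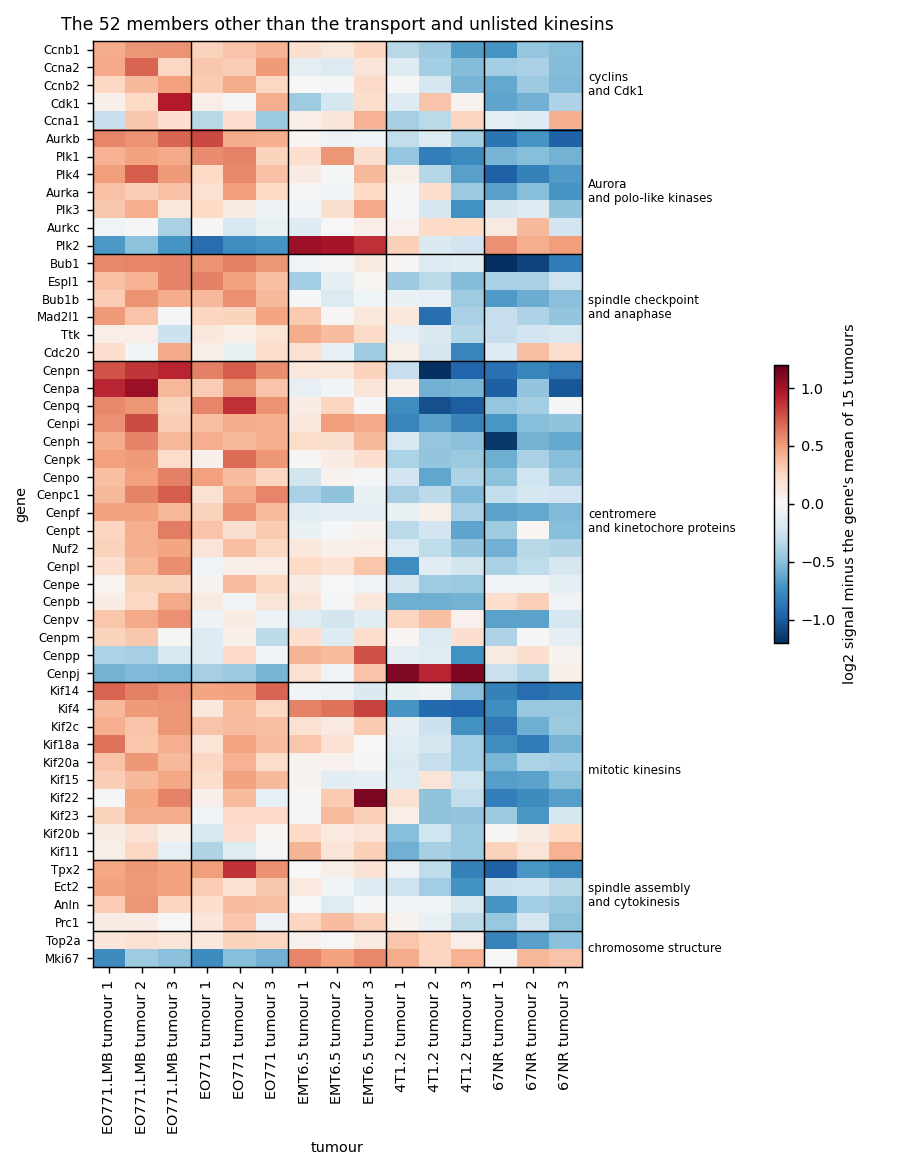
Log2 signal of the 52 mitotic members (rows, grouped by role) in the 15 tumours (columns), as the difference from each gene's mean of the 15 tumours (colour). Most rows are above their mean in the 6 EO771.LMB and EO771 columns, and the rows of Mki67, Plk2 and Cenpj run the other way, with differences of -0.90, -0.93 and -0.94 between the pairs.

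Of the mitotic cyclins and their kinase, 4 of 5 were higher in the EO771 pair relative to the 4T1 pair (median difference 0.75). Cyclin B1 (Ccnb1), which activates Cdk1 at the entry into mitosis, was 11.09, 11.17 and 11.18 in EO771.LMB tumours and 10.92, 10.98 and 11.05 in EO771 tumours, with 10.83, 10.78 and 10.90 in EMT6.5 tumours, against 10.31, 10.21 and 9.97 in 4T1.2 and 9.93, 10.18 and 10.13 in 67NR tumours. All 9 tumours of the first 3 types were above all 6 of the 4T1 pair. The difference was 0.95 ± 0.07 (SE) for the EO771 pair (1.93-fold, adjusted p = 1e-07) and 0.72 ± 0.09 for EMT6.5 (adjusted p = 6e-05), both against the 4T1 pair. The same gene has 2 further probe clusters, which gave 1.11 and 1.00 between the pairs. Its relative Ccnb2 differed by 0.75 and cyclin A2 (Ccna2), needed from DNA replication to early mitosis, by 0.82, both without overlap between the pairs. Cdk1 itself was 8.66, 8.84 and 9.55 in EO771.LMB tumours and 8.68, 8.62 and 9.04 in EO771 tumours, against 8.45, 8.94 and 8.64 in 4T1.2 and 7.97, 8.03 and 8.23 in 67NR tumours. These groups overlapped, and the difference of 0.52 ± 0.16 (adjusted p = 0.016) was the smallest of the 4. In EMT6.5 tumours Cdk1 was 8.18, 8.39 and 8.81, which was 0.08 ± 0.19 from the 4T1 pair (adjusted p = 0.83). Ccna2 was 0.35 ± 0.12 above that pair in EMT6.5 and narrowly did not pass. Thus 2 of these 5 genes were called higher in EMT6.5, where 11.9% of all genes were. The remaining member, Ccna1, a cyclin of germ cells, lay between 4.49 and 5.36 in all tumours and was not called in any comparison.

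The Aurora and polo-like kinases split by gene. Aurora B (Aurkb), the kinase that corrects wrong attachments of chromosomes, was 9.91, 9.87 and 10.03 in EO771.LMB tumours and 10.12, 9.77 and 9.76 in EO771 tumours, with 9.35, 9.27 and 9.29 in EMT6.5 tumours, against 9.03, 9.17 and 8.92 in 4T1.2 and 8.45, 8.62 and 8.36 in 67NR tumours. The 4 levels of EO771 pair, EMT6.5, 4T1.2 and 67NR did not overlap. The EO771 pair was higher than the 4T1 pair by 1.15 ± 0.08 (2.23-fold, adjusted p = 3.7e-08) and higher than EMT6.5 by 0.61 ± 0.10 (adjusted p = 0.00029), and 4T1.2 was higher than 67NR by 0.57 ± 0.12 (adjusted p = 0.0031). Plk1, which acts from centrosome maturation to cytokinesis, was 9.46, 9.53 and 9.50 in EO771.LMB, 9.61, 9.64 and 9.31 in EO771 and 9.25, 9.58 and 9.24 in EMT6.5 tumours, against 8.58, 8.22 and 8.28 in 4T1.2 and 8.49, 8.54 and 8.48 in 67NR tumours. It thus fell into a high and a low set, with the EO771 pair 1.08 ± 0.09 and EMT6.5 0.93 ± 0.11 above the 4T1 pair (adjusted p = 1.9e-07 and 3.1e-05), and a difference of -0.15 ± 0.13 between 4T1.2 and 67NR (adjusted p = 0.49). Aurka, the Aurora kinase of the spindle poles, was higher in the EO771 pair by 0.67, and Plk4, the kinase that starts centriole duplication, by 1.05. Plk2, which is induced by stress and serum rather than by mitosis, ran the other way. It was 9.18, 9.37 and 9.16 in EO771.LMB and 8.95, 9.12 and 9.16 in EO771 tumours, with 10.89, 10.85 and 10.74 in EMT6.5 tumours, against 10.15, 9.69 and 9.64 in 4T1.2 and 10.41, 10.30 and 10.37 in 67NR tumours. The EO771 pair was thus lowest and EMT6.5 highest, at -0.93 ± 0.09 and 0.73 ± 0.11 from the 4T1 pair (adjusted p = 1e-06 and 0.00028). Aurkc, the germ cell form, was not called in any comparison.

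Of the 6 checkpoint and anaphase genes, 5 were higher in the EO771 pair relative to the 4T1 pair (median 0.76). Bub1, a checkpoint kinase of the kinetochore, was 11.64, 11.65 and 11.66 in EO771.LMB tumours and 11.61, 11.67 and 11.60 in EO771 tumours, with 11.02, 11.05 and 11.17 in EMT6.5 tumours, against 11.08, 10.91 and 10.94 in 4T1.2 and 9.81, 9.96 and 10.23 in 67NR tumours. The EO771 pair formed a narrow band above all others, EMT6.5 overlapped with 4T1.2, and 67NR stood alone at the bottom. The difference between the pairs was 1.15 ± 0.07 (2.22-fold, adjusted p = 1.5e-08). Bub1b differed by 0.83 and Espl1, the protease separase that cuts cohesin at anaphase, by 0.85. Espl1 was higher in the EO771 pair than in EMT6.5 as well (0.64 ± 0.11, adjusted p = 0.00034), and its difference of 0.21 between EMT6.5 and the 4T1 pair did not pass (adjusted p = 0.21). Mad2l1, which blocks the anaphase-promoting complex until all kinetochores are attached, was higher in the EO771 pair by 0.69 ± 0.15 although its tumours overlapped. Ttk, the kinase at the head of the checkpoint, was 9.62, 9.62 and 9.28 in EO771.LMB and 9.67, 9.62 and 9.71 in EO771 tumours, with the highest levels, 9.99, 9.91 and 9.77, in EMT6.5 tumours, against 9.44, 9.37 and 9.20 in 4T1.2 and 9.27, 9.31 and 9.35 in 67NR tumours. EMT6.5 was above the 4T1 pair by 0.57 ± 0.09 (adjusted p = 0.00068). The smaller difference of 0.26 between the EO771 pair and the 4T1 pair was 0.16 under quantile normalization (adjusted p = 0.12). Cdc20, the activator of the anaphase-promoting complex, was the only checkpoint gene not called between the pairs. It was 9.08, 8.84 and 9.33 in EO771.LMB and 8.94, 8.80 and 9.10 in EO771 tumours, against 8.95, 8.67 and 8.08 in 4T1.2 and 8.72, 9.24 and 9.09 in 67NR tumours (difference 0.22 ± 0.15, adjusted p = 0.29).

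Of the 18 centromere and kinetochore genes, 15 were higher and 1 lower in the EO771 pair relative to the 4T1 pair (median 0.75). Cenpn, which recognises centromeric nucleosomes, had the largest difference of all 79 members between the pairs. It was 10.02, 10.12 and 10.18 in EO771.LMB, 9.87, 9.99 and 9.82 in EO771 and 9.40, 9.39 and 9.54 in EMT6.5 tumours, against 8.99, 8.07 and 8.31 in 4T1.2 and 8.37, 8.48 and 8.41 in 67NR tumours. The EO771 pair was above the 4T1 pair by 1.56 ± 0.12 (2.95-fold, adjusted p = 9.6e-08) and above EMT6.5 by 0.56 ± 0.15 (adjusted p = 0.011), with no overlap in either. Cenpa, the histone variant that marks the centromere, was 9.70, 9.82 and 9.19 in EO771.LMB and 9.09, 9.32 and 9.13 in EO771 tumours, against 8.85, 8.21 and 8.23 in 4T1.2 and 7.81, 8.31 and 7.77 in 67NR tumours (difference 1.18 ± 0.14, adjusted p = 1e-05). Subunits of the inner kinetochore followed: Cenpq by 1.18, Cenpi by 1.13, Cenph by 1.03, Cenpk by 0.88 and Cenpo by 0.83, each without overlap between the pairs. A dimmer second cluster of Cenpo (mean 7.44) gave 0.69 between the pairs, and the tumours overlapped there. At the outer kinetochore, Nuf2, a subunit of the complex that binds microtubules, differed by 0.69, Cenpf by 0.79 and the motor Cenpe by 0.42, again without overlap.

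Some centromere genes did not share the position of EMT6.5 between the pairs. Cenpc1, which ties the centromere to the outer kinetochore, was 9.58, 9.79 and 9.92 in EO771.LMB and 9.38, 9.65 and 9.78 in EO771 tumours, with 8.81, 8.71 and 9.11 in EMT6.5, against 8.80, 8.88 and 8.67 in 4T1.2 and 8.90, 8.98 and 8.97 in 67NR tumours. EMT6.5 and the 4T1 pair thus overlapped (difference 0.01 ± 0.11), whereas the EO771 pair was higher than each (0.81 ± 0.11 above EMT6.5, adjusted p = 7.7e-05). Cenpp was higher in EMT6.5 than in either, at 7.33, 7.31 and 7.69, by 0.62 over the 4T1 pair and with the EO771 pair 0.67 below EMT6.5 on the log2 scale. Cenpj, a centriole protein that shares the name but not the site of the family, was the member of the group that was lower in the EO771 pair. It was 7.96, 8.00 and 7.98 in EO771.LMB and 8.13, 8.10 and 7.97 in EO771 tumours, against 9.64, 9.45 and 9.65 in 4T1.2 and 8.26, 8.18 and 8.59 in 67NR tumours. The difference between the pairs was -0.94 ± 0.09 (adjusted p = 7.5e-07), and all 4T1.2 tumours were above all other tumours. Cenpm lay between 5.61 and 6.30 and was not called in any comparison.

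**Figure D3:**
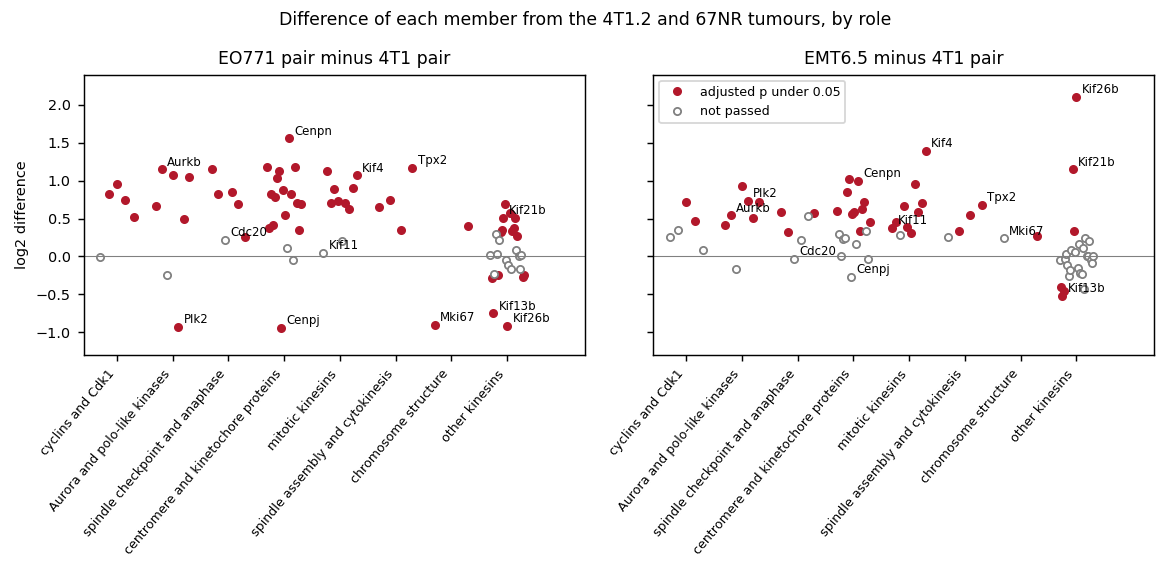
Log2 difference (y axis) of each member from the 4T1 pair, by role (x axis), for the EO771 pair (one panel) and EMT6.5 (the other). Each point is a gene, filled where the adjusted p was under 0.05. In the EO771 pair 42 of the 52 mitotic members are filled above 0 and 3 below it, and in EMT6.5 34 are filled above 0, with Kif26b at 2.11 the highest point among the other kinesins.

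Of the 10 mitotic kinesins, 8 were higher in the EO771 pair relative to the 4T1 pair (median 0.72) and 9 were higher in EMT6.5 (median 0.52). Kif4, a motor that rides on chromosome arms and on the central spindle, was 9.95, 10.07 and 10.09 in EO771.LMB and 9.69, 9.94 and 9.81 in EO771 tumours, with the highest levels, 10.16, 10.21 and 10.37, in EMT6.5 tumours, against 8.85, 8.63 and 8.61 in 4T1.2 and 8.82, 9.11 and 9.11 in 67NR tumours. It was above the 4T1 pair by 1.39 ± 0.10 in EMT6.5 (2.62-fold, adjusted p = 2e-07) and by 1.07 ± 0.08 in the EO771 pair, and the EO771 pair was 0.32 ± 0.10 below EMT6.5 on the log2 scale (adjusted p = 0.024). Kif14, which acts in cytokinesis, was 9.86, 9.77 and 9.71 in EO771.LMB and 9.64, 9.65 and 9.86 in EO771 tumours, with 9.13, 9.09 and 8.99 in EMT6.5 tumours, against 9.08, 9.10 and 8.66 in 4T1.2 and 8.35, 8.25 and 8.30 in 67NR tumours. It was thus ordered like Bub1, with the EO771 pair 1.13 ± 0.08 above the 4T1 pair (adjusted p = 5.7e-08) and 0.68 above EMT6.5. A dimmer second cluster of Kif14 (mean 5.96) gave 0.20 between the pairs and did not pass (adjusted p = 0.13). Kif2c, which takes apart microtubule ends at the centromere, differed by 0.90 between the pairs, Kif18a, which damps the movements of chromosomes, by 0.89, and the cytokinesis motors Kif20a and Kif23 by 0.73 and 0.63.

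Kif11, the motor that pushes the spindle poles apart, did not follow the other kinesins. It was 10.97, 11.15 and 10.80 in EO771.LMB and 10.54, 10.76 and 10.89 in EO771 tumours, with 11.31, 11.06 and 11.19 in EMT6.5, against 10.32, 10.50 and 10.46 in 4T1.2 and 11.18, 11.06 and 11.32 in 67NR tumours. 67NR and EMT6.5 overlapped at the top and 4T1.2 lay below every other tumour. The mean of the EO771 pair differed from that of the 4T1 pair by 0.05 ± 0.09 (adjusted p = 0.72), a value that was -0.06 after quantile normalization. Kif20b, also a motor of cytokinesis, had a similar order within the 4T1 pair, with 9.70, 9.98 and 9.77 in 4T1.2 tumours against 10.23, 10.30 and 10.45 in 67NR tumours, and its difference of 0.20 between the pairs did not pass (adjusted p = 0.064).

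All 4 genes of spindle assembly and cytokinesis were higher in the EO771 pair. Tpx2, which activates Aurora A on the spindle, was 9.91, 9.97 and 9.93 in EO771.LMB and 9.95 to 10.32 in EO771 tumours, with 9.45, 9.52 and 9.62 in EMT6.5, against 9.38, 9.14 and 8.64 in 4T1.2 and 8.48, 8.75 and 8.68 in 67NR tumours. The pairs were 1.17 ± 0.11 apart (2.25-fold, adjusted p = 1e-06), and EMT6.5 lay between them, 0.68 ± 0.14 above the 4T1 pair (adjusted p = 0.0029). Ect2, which sets up the cleavage furrow, differed by 0.75 between the pairs, anillin (Anln), a scaffold of the furrow, by 0.65, and Prc1, which bundles microtubules of the central spindle, by 0.35. Prc1 was 0.55 higher in EMT6.5 than in the 4T1 pair.

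The 2 members that act on chromosome structure differed from this pattern and from each other. Mki67, which coats mitotic chromosomes and encodes the antigen Ki67 used to count cycling cells, was 9.56, 9.88 and 9.81 in EO771.LMB and 9.56, 9.80 and 9.73 in EO771 tumours, with 10.90, 10.79 and 10.89 in EMT6.5, against 10.76, 10.57 and 10.73 in 4T1.2 and 10.32, 10.71 and 10.65 in 67NR tumours. Every tumour of the EO771 pair was below every other tumour, by -1.14 ± 0.11 against EMT6.5 (adjusted p = 1.3e-06) and by -0.90 ± 0.09 against the 4T1 pair. Mki67 has a single probe cluster on the array, and array signal does not measure the protein. EMT6.5 differed from the 4T1 pair by 0.24 ± 0.11 (adjusted p = 0.16). Topoisomerase II alpha (Top2a), which untangles chromosomes, was 11.78, 11.82 and 11.78 in EO771.LMB and 11.76, 11.90 and 11.89 in EO771 tumours, with 11.68, 11.63 and 11.74 in EMT6.5, against 11.97, 11.89 and 11.71 in 4T1.2 and 10.83, 10.98 and 11.13 in 67NR tumours. The EO771 lines and 4T1.2 overlapped and 67NR alone was low, and the pairs differed by 0.40 ± 0.07. A dimmer second cluster of Top2a (mean 6.77) gave 0.32 between the pairs and did not pass (adjusted p = 0.19).

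**Figure D4:**
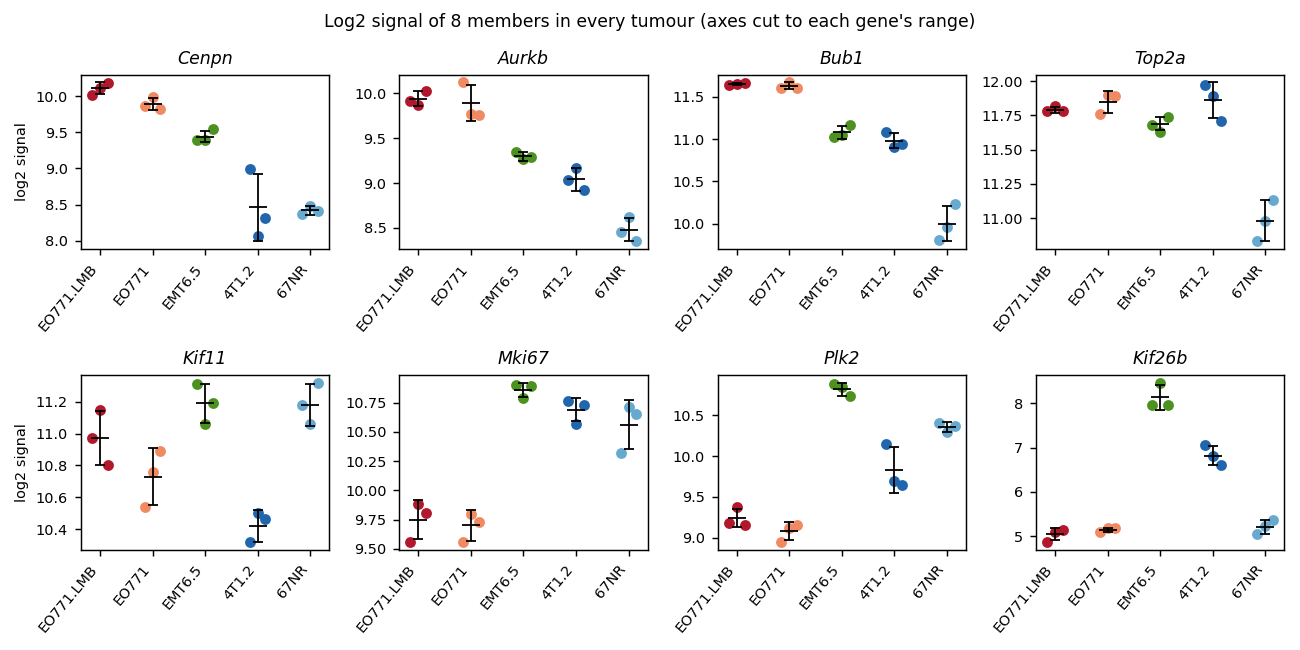
Log2 signal (y axis, cut to each gene's range) of 8 members in every tumour (points) of the 5 types (x axis), with the mean ± SD of each type (bars, n = 3 tumours). Cenpn, Aurkb and Bub1 are highest in EO771.LMB and EO771, Top2a is low in 67NR alone, Kif11 is low in 4T1.2, Mki67 is low in EO771.LMB and EO771, and Plk2 and Kif26b are highest in EMT6.5, with Kif26b at 7.95 to 8.46.

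The 27 other kinesins did not move as a block, and 14 of them passed limma's overall test among the 5 types, against 48 of the 52 mitotic members and 48.9% of all genes. Kif26b, a kinesin without motor activity that is known from Wnt5a signalling, had the largest differences of all members in both comparisons with EMT6.5 and between 4T1.2 and 67NR. It was 4.88, 5.11 and 5.15 in EO771.LMB and 5.09, 5.18 and 5.18 in EO771 tumours, with 7.97, 8.46 and 7.95 in EMT6.5 tumours, against 7.05, 6.82 and 6.60 in 4T1.2 and 5.05, 5.23 and 5.36 in 67NR tumours. EO771.LMB, EO771 and 67NR overlapped and lay near the bottom of the array's range of 3.26 to 13.98. Differences from these types are differences of signal, which can be smaller than those of the transcript at so low a level. EMT6.5 was above the 4T1 pair by 2.11 ± 0.13 (adjusted p = 4.6e-08), and the EO771 pair was below EMT6.5 by -3.03 ± 0.13 (adjusted p = 2.8e-10). Kif21b, a motor of neurons and lymphocytes, was highest in EMT6.5, at 7.20, 7.86 and 7.26, against 6.64, 6.41 and 6.48 in 4T1.2 and 6.33, 6.05 and 5.86 in 67NR tumours (difference 1.15 ± 0.16, adjusted p = 0.00013). Kif3c, a subunit of a transport motor, was 7.52, 7.14 and 7.13 in EO771.LMB and 7.33, 7.79 and 7.41 in EO771 tumours, against 6.61, 6.00 and 6.73 in EMT6.5 tumours, which is 0.94 ± 0.16 higher in the EO771 pair (adjusted p = 0.00032). Its other probe cluster, with a mean of 6.61 over the 15 tumours, gave a smaller difference of 0.33 ± 0.12 (adjusted p = 0.048), and the tumours overlapped there. Kif2a, which takes apart microtubules at spindle poles and in neurons, and Kif24, a centrosomal relative, were higher in the EO771 pair relative to the 4T1 pair by 0.57 and 0.69. Kif13b, a transport motor, was 6.27 to 6.83 in the 12 tumours of the other types, against 7.92, 7.53 and 7.53 in 67NR tumours. Kif5b, the transport motor found in most cells, differed by 0.00 between the pairs and lay between 10.70 and 11.45 throughout.

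Within the 4T1 pair the question is which members separate the metastatic 4T1.2 from the non-metastatic 67NR. Of the 79, 16 were higher and 10 lower in 4T1.2 (median difference 0.12), where 9.78% of all genes were higher and 11% lower. None of the 5 cyclin and Cdk1 genes was called, at a difference of 0.09 for Ccnb1, and neither were Plk1 nor Mki67 (0.13 ± 0.12, adjusted p = 0.55). Cdk1 was at 0.60 ± 0.22 and did not pass (adjusted p = 0.082), although its tumours did not overlap, as for 35.3% of all genes. The largest increases among mitotic members were in Cenpj (1.24 ± 0.12, adjusted p = 6.1e-06), Bub1 (0.98 ± 0.11, adjusted p = 1.2e-05), Top2a (0.88 ± 0.10, adjusted p = 2e-05) and Cenpv (0.72 ± 0.13, adjusted p = 0.00087). Among the other kinesins, Kif26b was higher by 1.61 ± 0.15 (adjusted p = 2.8e-06) and Kif9, a kinesin of cilia, by 0.90 ± 0.11. The largest decreases were in Kif13b and Kif21a, both at -1.0, and in Kif11 at -0.76 ± 0.12 (adjusted p = 0.00051). Cenpb, which binds centromeric satellite DNA, was 6.92, 6.92 and 6.94 in 4T1.2 tumours against 7.71, 7.79 and 7.46 in 67NR tumours (-0.72 ± 0.12, adjusted p = 0.00045), while Cenpq fell by 0.63. Markers of other cells moved in this comparison too, and their part in these calls was not tested. In 4T1.2, 4 of 7 neutrophil markers were higher (median 0.55), 4 of 10 fibroblast markers were higher and 2 lower (median 0.46), and 2 of 10 mammary epithelial markers were higher (median 0.15), Krt18 by 3.78. Lower in 4T1.2 were 5 of 11 macrophage markers (median -0.68), 2 of 9 T cell markers (median -0.78) and 2 of 9 endothelial markers (median -0.29). The calls of Anln, Aurka and Cenpf were each lost without a single tumour, with 0.34 for Anln without 67NR tumour 1 (adjusted p = 0.068) and 0.40 and 0.35 for Aurka and Cenpf without 4T1.2 tumour 2 (adjusted p = 0.088 and 0.053). Without 67NR tumour 1, 67NR tumour 3 or 4T1.2 tumour 1, Aurka was at 0.53, 0.50 and 0.51 (adjusted p = 0.061, 0.064 and 0.06).

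Between the metastatic EO771.LMB and the parental EO771, limma called 0 of the 79 members higher and 0 lower, where 0% of all genes were higher and 0.0273% lower. At an unadjusted p under 0.05, 4 were higher and 1 lower, where 4.29% of all genes were higher and 4.52% lower. The median difference was 0.05 and the differences of the members ran from -0.34 to 0.46. Cenpv had the highest, with 7.95, 8.07 and 8.17 in EO771.LMB tumours against 7.56, 7.71 and 7.56 in EO771 tumours (0.46 ± 0.13, adjusted p = 0.30). These tumours did not overlap, as for 16% of all genes in this comparison, and the gene did not pass the test over all clusters. Bub1 differed by 0.02 ± 0.11, Plk1 by -0.02 ± 0.13 and Mki67 by 0.05 ± 0.12. In simulated data for this comparison, 9 of 50 clusters were recovered at a log2 change of 0.5 and 32 of 50 at 1. The median difference was -0.70 for T cell markers, with 0 of 9 called, and -0.39 for endothelial markers, with 1 of 9 lower. It was -0.25 for macrophage, 0.03 for fibroblast and 0.09 for neutrophil markers, and the part of these cells was not tested.

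**Figure D5:**
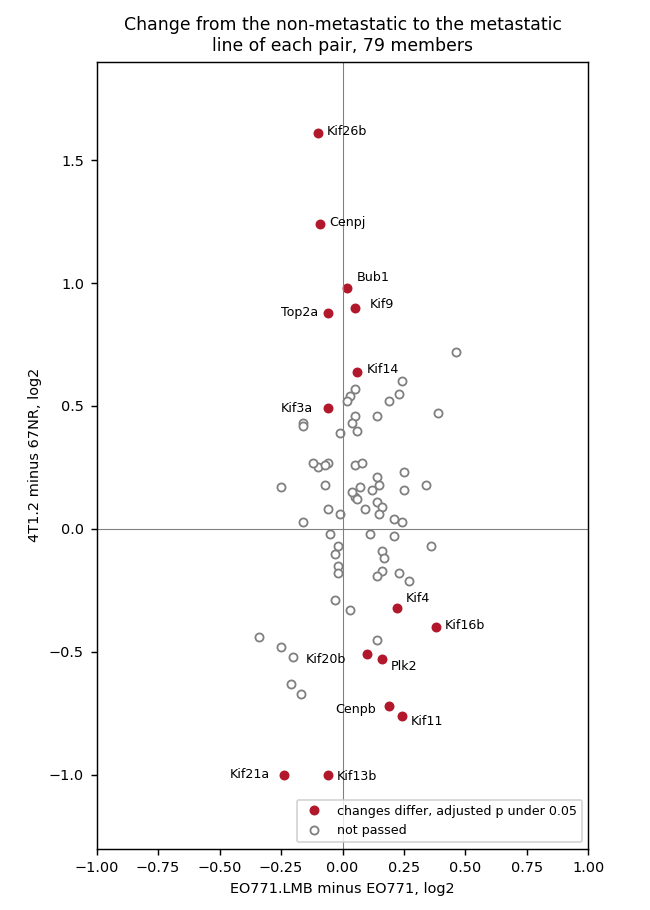
Difference between the metastatic and the non-metastatic line in the EO771 pair (x axis, EO771.LMB minus EO771, log2) and in the 4T1 pair (y axis, 4T1.2 minus 67NR, log2) for the 79 members. Filled points are the 15 genes whose 2 differences were not equal at an adjusted p under 0.05, and all points lie between -0.34 and 0.46 along the x axis but between -1.0 and 1.61 along the y axis.

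Tested directly, the change in the EO771 pair minus the change in the 4T1 pair was higher for 8 members and lower for 7 (median -0.03), where 6.41% of all genes were higher and 5.88% lower. The members with the lowest values were Kif26b, Cenpj and Bub1, and those with the highest were Kif11, Kif13b and Cenpb. The count of higher calls depended on single tumours. It was 3 without 4T1.2 tumour 3 or without EO771 tumour 1, 4 without 4T1.2 tumour 2 or EO771 tumour 3, and 5 without 67NR tumour 2, 67NR tumour 3 or EO771.LMB tumour 2, and the count of lower calls was 12 without 4T1.2 tumour 3.

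Calls in the comparisons with EMT6.5 rested on single tumours more often. Against the 4T1 pair, the calls of Aurka, Ccnb2, Cenpa, Ect2, Kif11, Kif13a, Kif23 and Top2a were lost when a tumour was left out. Without EMT6.5 tumour 3, their differences were 0.33 for Aurka (adjusted p = 0.17), 0.39 for Ccnb2 (0.067), 0.52 for Cenpa (0.12), 0.38 for Kif11 (0.068), -0.40 for Kif13a (0.055), 0.55 for Kif23 (0.052) and 0.24 for Top2a (0.17). Without EMT6.5 tumour 1, calls were lost for Aurka (0.45), Cenpa (0.65), Ect2 (0.27), Kif11 (0.32), Kif13a (-0.40) and Top2a (0.27), and without EMT6.5 tumour 2 for Cenpa (0.62), Ect2 (0.35), Kif23 (0.51) and Top2a (0.29). Tumours of the 4T1 pair mattered too, with Aurka, Cenpa and Ect2 losing their calls without 67NR tumour 3 (0.40, 0.55 and 0.33), Aurka and Cenpa without 67NR tumour 1 (0.42 and 0.56), and Cenpa without 4T1.2 tumour 2 or 3 (0.54 and 0.55). Top2a, at 0.27 ± 0.09 (adjusted p = 0.046) with all tumours, lost its call in 17 of the alternatives. In the EO771 pair against EMT6.5, Cenpa, Kif11, Tpx2 and Ttk were at 0.53, -0.28, 0.44 and -0.25 without EMT6.5 tumour 1 (adjusted p = 0.087, 0.14, 0.07 and 0.13), and Kif21b at -0.43 without EMT6.5 tumour 2 (adjusted p = 0.051). Cenpa, Tpx2 and Ttk were lost without that tumour as well (0.56, 0.48 and -0.29), and Kif11 without EMT6.5 tumour 3 (-0.34). Kif11 was also lost without EO771.LMB tumour 3 or EO771 tumour 1, at -0.29 in both, and Ttk without EO771 tumour 2, at -0.29.

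Genes of the same machinery that the symbols did not pick up were counted from lists. For these counts, 23.6% of all genes were higher and 19.5% lower in the EO771 pair relative to the 4T1 pair. In EMT6.5 relative to the 4T1 pair the shares were 11.9% and 9.56%. Of 69 further mitotic genes measured, 60 were higher and 2 lower in the EO771 pair relative to the 4T1 pair (median 0.69), and 37 were higher and 1 lower in EMT6.5 (median 0.46). Those with the largest differences between the pairs were Zwilch (1.57), a kinetochore protein of the checkpoint, Ndc80 (1.49), the partner of Nuf2, and Psrc1 (-1.49), a spindle protein that was lower. Of 39 DNA replication genes, 33 were higher and 1 lower (median 0.74). Among 20 regulators of mitotic genes, 13 were higher and 2 lower (median 0.34), led by E2f4 (1.70), E2f8 (1.59) and Mybl2 (1.50). Foxm1, the forkhead factor that activates late cell cycle genes, was higher in the EO771 pair by 0.64 (adjusted p = 1.3e-05) and in EMT6.5 by 0.50 (adjusted p = 0.002), and its difference of 0.17 between 4T1.2 and 67NR did not pass (adjusted p = 0.34). Another 4 centromere genes carry an older symbol on the array and were left out by the rule. Of these, 3 were higher in the EO771 pair relative to the 4T1 pair: Cenpu, listed as Mlf1ip, by 1.43, Cenps by 0.81 and Cenpx by 0.40 (adjusted p = 0.041). Cenpw differed by 0.31 and did not pass (adjusted p = 0.066).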

How the data were processed

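Total RNA of 15 whole tumours, 3 for each of 5 types, was measured on single-colour Affymetrix arrays, and the authors deposited log2 signals per transcript cluster. The study's methods name GCRMA, while RMA and Partek 6.6 stand in the submitters' processing notes, so which background correction made the values is not settled. The deposited workbook and value table were identical (0 of 533340 values differed). The workbook has 2 smaller sheets, whose 30 columns of values per sample were left out. A gene was taken from its brightest cluster. All 35556 clusters were fitted in limma 3.58.1 (R 4.3.3) with the tumour type only, and p-values were Benjamini-Hochberg adjusted over all of them. P-values measure the spread between mice carrying 1 line. No filter was applied. Precision is limited by the number of arrays. The script was tested on simulated data: with a log2 change of 1, the test between the pairs recovered 49 of 50 clusters and that between 4T1.2 and 67NR 37 of 50. Far fewer clusters were changed there than were called in these comparisons of the tumours, so these counts do not give the recovery in the tumours. Of the RefSeq accessions of the array, 20508 of 20955 were found. The members and lists were chosen with earlier results of these data known. Levels in every tumour are given for members fixed by name and, for each comparison, for up to 6 in each direction with the largest called change and no overlap. Genes outside the rule are named by size of change, at most 3 in a list, and Foxm1 always. Alternatives were other scaling, signal and cluster choices, other tests, a block by tumour number and leaving out each tumour.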

Additional observations from a re-analysis of the deposited data

Results flagged for a closer look

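The change in the EO771 pair is EO771.LMB minus EO771 and that in the 4T1 pair is 4T1.2 minus 67NR. Their difference was called for 9 of the members followed here, where 8 of all 79 members were higher and 7 lower. The members followed here were fixed by name or had the largest called differences without overlap between 4T1.2 and 67NR. All 9 are among the latter. The values of 4T1.2 and 67NR enter the tested difference, so its size and sign follow in part from that choice. The difference of changes was negative for Kif26b (-1.71 ± 0.21 SE, adjusted p = 9.3e-05 by limma), Cenpj (-1.32 ± 0.18, adjusted p = 0.00018), Bub1 (-0.95 ± 0.15, adjusted p = 0.00074), Top2a (-0.94 ± 0.14, adjusted p = 0.00055) and Kif9 (-0.85 ± 0.16, adjusted p = 0.003), all of which were higher in 4T1.2 than in 67NR. It was positive for Kif11 (1.00 ± 0.17, adjusted p = 0.0016), Kif13b (0.94 ± 0.18, adjusted p = 0.0032), Cenpb (0.91 ± 0.16, adjusted p = 0.002) and Kif21a (0.76 ± 0.21, adjusted p = 0.031), all of which were lower in 4T1.2. None of the 9 was called between EO771.LMB and EO771. Kif21a lost its call in 9 alternatives, among them without EO771.LMB tumour 1 (0.61, adjusted p = 0.07) and without EO771 tumour 1 (0.69, adjusted p = 0.079). Top2a lost it when its 2 clusters were averaged (-0.66, adjusted p = 0.059).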

How the results depend on the processing

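The counts and medians of the members stayed within their limits in 440 of the values recomputed and moved in 22. At an unadjusted p under 0.05, EO771.LMB minus EO771 gave 4 higher and 1 lower members in place of 0 and 0. Of all genes, 4.29% were higher and 4.52% lower there. The difference of changes gave 16 lower in place of 7, where 2639 of 22008 genes were lower. EMT6.5 minus the 4T1 pair gave 7 lower in place of 3, where 15% of all genes were lower. For the EO771 pair minus the 4T1 pair, 5 members were lower with arrays centred on their medians and 5 with only clusters above the median signal, in place of 9, and the median was 0.68 in the second case. Over all genes, 5137 were lower at an unadjusted p under 0.05 in the main fit and 3923 with arrays centred, so centring moved genes at large too. With EMT6.5 tumour 2 alone, chosen after seeing the data and with the lone tumour assumed to vary like the other types, EMT6.5 minus the 4T1 pair gave 14 higher and 1 lower, and the EO771 pair minus EMT6.5 gave 11 higher and 4 lower. Leaving out each tumour in turn, the difference of changes gave 3 to 8 higher and 5 to 12 lower members. The median of the EO771 pair minus the 4T1 pair was 0.40 to 0.49. EMT6.5 minus the 4T1 pair gave 25 to 38 higher members in place of 37, and 1 to 3 lower (1 without EMT6.5 tumour 1). Higher members were 11 to 19 in place of 16 for 4T1.2 minus 67NR. They were 20 to 28 in place of 25 for the EO771 pair minus EMT6.5. The limits for counts were wide, and none of these 3 ranges of higher members is among the 22 that moved. Kif11 in the EO771 pair minus the 4T1 pair was -0.06 after quantile normalization in place of 0.05, and the cause was not tested. Members followed singly kept direction and call in 1485 values with a tumour left out and lost the call in 60, and in the other settings 901 kept it and 19 lost it. Tumour numbers name different mice. Their deviations from the type means correlated at -0.17 to 0.15 for the same number and at -0.16 to 0.21 for different numbers, so the numbers do not pair the tumours, and a fit with tumour number as a block gave 51 higher and 8 lower members for the EO771 pair minus the 4T1 pair, 16 and 10 for 4T1.2 minus 67NR, and 36 and 3 for EMT6.5 minus the 4T1 pair. The number of arrays limits what can be seen. With a simulated log2 change of 0.5, 10 of 50 clusters were recovered between 4T1.2 and 67NR. Far fewer clusters were changed in the simulation than were called between these tumours, which makes the adjusted p stricter there. The simulated count thus does not give the share of such changes found in the tumours, where Cenpf and Kif18a passed at 0.46.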
